A study of Mus musculus with 12 samples.

Results

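Genes of ribosome biogenesis and of the RNA exosome were followed in the embryonic testis of mice whose ancestors were given thiacloprid (*thia*), a neonicotinoid insecticide, during gestation. The members were chosen by symbol, with earlier results of these data known. The study had reported rRNA processing among the functions of its down-regulated F3 genes. Counts of members below therefore describe a set that was not picked blindly. It took in names of the *Exosc*, *Nop*, *Utp* and *Rrp* series, *Polr1a* to *Polr1e*, and 12 further genes named in full. The 12 were *Nip7*, *Fbl*, *Ncl*, *Npm1*, *Dkc1*, *Gar1*, *Nhp2*, *Bop1*, *Pes1*, *Wdr12*, *Imp3* and *Imp4*. The choice gave 51 members of the 35976 symbols counted, spread over 17 chromosomes, and each of the 51 passed the filter on low counts in every comparison. RNA of whole testes at E15.5 was sequenced in 12 libraries, each from a pool of 3 embryos of the outbred Swiss (RjOrl) strain, with 3 libraries in each of 4 groups. F1 thia embryos had mothers that received 6 mg/kg/day of *thia* by gavage from E6.5 to E15.5, and F1 control embryos had mothers that received the oil vehicle. F3 thia and F3 control embryos descended from such mothers through F1 and F2 males mated with untreated, unrelated females, and were themselves never exposed. The testis was bulk tissue, so that fewer cells of a type and less RNA per cell cannot be told apart. Per the study's methods males came from different litters and the treatment and breeding were repeated, but the litter and treatment of each pool are not given in the sources used here, and the p-values measure the spread between pools.

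Ribosomes are assembled in the nucleolus, where RNA polymerase I transcribes the long precursor of the ribosomal RNAs. Small nucleolar ribonucleoproteins modify the precursor, with the box C/D particles guiding methylation of ribose and the box H/ACA particles guiding pseudouridylation. The small subunit processome folds and cleaves the part that becomes the small subunit RNA, other assembly factors build the large subunit, and the RNA exosome, a ring of subunits with a cap, trims and degrades RNA from its 3′ end. Growing cells need this machinery for protein synthesis.

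Library totals ran from 25081647 to 62786622 counts in F1 and from 35216128 to 68996146 in F3, and the lowest count of any member in any library was 110, for *Utp14b*. The library F3 thia 2 stood apart. Its pairwise chi-square per degree of freedom against the other F3 thia libraries was 90.7 and 101, compared with 17.3 to 42.2 for every other pair of replicates. Levels below are CPM, read counts scaled to a common library size with TMM over the 12 libraries. Levels of different genes are compared only as CPM per kilobase of exon. The exon length was the union of exons over a gene's annotated principal transcripts. Where a gene had none, transcripts paired with RefSeq were used, or else all transcripts. Fold changes are log2 ratios of *thia* over control with their standard error (SE) from edgeR's quasi-likelihood test, and adjusted p-values are Benjamini-Hochberg values over all genes tested, called when under 0.15 for F1 and under 0.1 for F3. Markers of testis were present throughout: the summed level of 15 germ cell genes ran from 599.8 to 2030 CPM and that of 12 Sertoli cell genes from 970 to 2236 CPM, and no gene of the 9 marker lists was at 0 in every library.

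Promoters of 42 of the 51 members were found in RefSeq (GRCm38.p6). A few are shown so that motifs found before the start of some of these genes can be seen beside the values. The window searched held 250 bases before and 50 bases after the start, on both strands. The E-box CACGTG, a motif bound by factors of the Myc family and others, was in 8 of the 42 members (19.0%) and in 7.15% of all 32851 promoters. The ETS core CCGGAA was in 38.1% of the members and 14.9% of all promoters, and the GC box GGGCGG in 69.0% and 35.7%. The sequence TATAAA was in 7.14% of the members and 13.6% of all promoters. Counted by gene, as the members are, the shares over 27025 genes were 8.09% for the E-box, 16.7% for the ETS core, 38.2% for the GC box and 15.7% for TATAAA. The GC content of the member promoters ranged from 42.7% to 78.0%. A match of letters is a description and not a binding site. The 250 bases before the start are printed for 2 members with the smallest F3 p-values that have an entry, *Nip7* (chr8:107056627-107056876, forward strand) and *Exosc8* (chr3:54735365-54735614, reverse strand), and for 2 with an E-box, *Exosc5* (chr7:25658903-25659152, forward strand) and *Utp18* (chr11:93885767-93886016, reverse strand), each 5′ to 3′ towards the start. Capitals mark the E-box, the ETS core and the GC box on either strand, none of which overlaps another in these sequences.
Nip7: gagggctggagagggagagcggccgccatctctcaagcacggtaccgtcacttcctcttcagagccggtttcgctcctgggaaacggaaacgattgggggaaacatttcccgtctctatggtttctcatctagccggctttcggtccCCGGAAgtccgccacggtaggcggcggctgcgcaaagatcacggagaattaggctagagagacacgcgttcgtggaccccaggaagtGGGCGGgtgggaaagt
Exosc8: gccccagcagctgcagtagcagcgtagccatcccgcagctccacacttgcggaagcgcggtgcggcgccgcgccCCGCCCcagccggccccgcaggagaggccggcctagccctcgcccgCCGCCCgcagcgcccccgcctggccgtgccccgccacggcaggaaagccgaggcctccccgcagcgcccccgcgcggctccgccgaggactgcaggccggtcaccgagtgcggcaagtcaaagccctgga
Exosc5: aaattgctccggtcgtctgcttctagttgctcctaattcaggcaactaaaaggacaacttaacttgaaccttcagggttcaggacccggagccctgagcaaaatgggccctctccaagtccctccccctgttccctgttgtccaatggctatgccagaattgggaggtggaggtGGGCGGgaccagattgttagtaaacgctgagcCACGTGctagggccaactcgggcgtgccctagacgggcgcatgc
Utp18: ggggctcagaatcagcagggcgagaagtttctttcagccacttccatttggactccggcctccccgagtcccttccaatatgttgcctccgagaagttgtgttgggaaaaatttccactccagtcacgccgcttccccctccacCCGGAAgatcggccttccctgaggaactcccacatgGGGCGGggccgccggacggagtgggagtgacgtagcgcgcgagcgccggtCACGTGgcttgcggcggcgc
*Nip7* has an ETS core and a GC box before the start, *Exosc8* has 2 GC boxes, *Exosc5* has a GC box and then the E-box 44 bases before the start, and *Utp18* has an ETS core, a GC box and the E-box 20 bases before the start. Of the 13 members with an entry that were lower in F3 *thia* at an unadjusted p under 0.05, 2 held the E-box, 6 the ETS core and 11 the GC box. The 2 with the E-box were *Exosc5* and *Utp18*, both printed above. Of the other 29 members with an entry, 6 held the E-box, 10 the ETS core and 18 the GC box. None of the 13 and 3 of the 29 held TATAAA.

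Per kilobase of exon the members spanned a wide range of levels. *Npm1*, a histone chaperone of the nucleolus, was the highest at a mean of 589 CPM per kb over the 12 libraries, followed by *Fbl*, the methyltransferase of the box C/D particles, at 180 and *Polr1c*, a subunit of polymerases I and III, at 96.6. The median member stood at 22.7 CPM per kb, and the median of all genes tested at 6.02. The lowest were *Utp14b*, a retrogene copy of *Utp14a*, at 0.938, *Rrp1b* at 4.71 and *Wdr12* at 4.81. The transcript models of *Wdr12* and *Utp14b* are long for their coding parts, which lowers the level per kb. Their exon lengths were 10613 and 7679 bases, and that of *Ncl*, 8202 bases, lay between them. *Ncl* ranked 5 among the members at 76.1 CPM per kb, so the order of the highest members also depends on the exon lengths used. Within the control libraries, 11 members were higher in every F3 pool than in every F1 pool (23.3% of all genes tested were) and 15 were lower (25.5% of all genes). *Polr1d*, *Polr1c*, *Npm1* and *Nhp2* were among the higher ones, at log2 ratios of F3 control over F1 control of 0.75, 0.61, 0.53 and 0.50. *Utp14b*, *Rrp1b*, *Polr1a* and *Nop14* were among the lower ones, at -1.18, -0.60, -0.56 and -0.51. The median member differed by -0.01 between the generations' controls and the median gene by -0.02. Blood markers summed to 5273 to 15564 CPM in F1 control and 62364 to 67137 in F3 control, and their part in these differences was not tested.

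The first question was whether direct exposure altered these genes. In F1 no member passed the FDR of 0.15, and the smallest adjusted p was 0.518. Over all genes 0.0105% passed. At an unadjusted p under 0.05, 1 member was lower (4.13% of all genes were) and 1 was higher (4.63% of all genes). Groups did not overlap for 7 members, all lower in *thia*, with a background of 8.45% of all genes lower and 6.55% higher. Of the 51 log2 fold changes 38 were below 0 (48.0% of all genes). Their median was -0.05 (all genes 0.01), and they ranged from -0.28 to 0.26. DESeq2's Wald test also called no member in F1, where it called 0.525% of genes as lower. Without F1 thia 2, in which 12 skeletal muscle genes reached a sum of 729 CPM against 33.2 to 99.0 in F1 control, 29 members were below 0, none passed p under 0.05 and the median was -0.03.

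*Nop16*, a nucleolar protein of large subunit assembly, had the smallest p in F1. It stood at 63.5, 67.4 and 60.0 CPM in F1 control and at 53.2, 53.7 and 54.1 in F1 *thia*, so that the groups did not overlap. The log2 fold change was -0.23 ± 0.08 (SE, unadjusted p = 0.0215, adjusted p = 0.518 by edgeR). *Rrp12*, a factor of late small subunit maturation and export, was at 94.7, 112 and 92.6 CPM in F1 control and at 105, 126 and 123 in F1 *thia*. The highest control lay within the *thia* values, and the log2 fold change was 0.26 ± 0.11 (adjusted p = 0.556 by edgeR). *Dkc1*, the pseudouridine synthase of the box H/ACA particles, was at 58.2, 53.7 and 68.7 CPM in control and 48.7, 52.5 and 52.6 in *thia* (log2 fold change -0.22 ± 0.11). *Wdr12*, of the PeBoW complex with *Pes1* and *Bop1*, was at 52.3, 59.9 and 56.3 CPM in control and 50.4, 48.8 and 48.3 in *thia* (-0.18 ± 0.09). For both the groups did not overlap. *Utp14a*, *Utp18* and *Rrp36* of the small subunit processome and *Polr1e* were the other members whose F1 groups did not overlap, with log2 fold changes of -0.20, -0.17, -0.13 and -0.12. *Nop14* and *Utp20*, also of the processome, completed the 10 members of smallest p together with *Utp14b*, at -0.13, -0.16 and -0.28. Their adjusted p-values were from 0.62 to 0.67. In the same libraries 8 macrophage markers summed to 66.0 to 78.1 CPM in control and 81.0 to 98.4 in *thia*, and 8 mesonephros markers to 72.5 to 86.1 and 95.9 to 122. The part of these cells in the F1 values was not tested.

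**Figure D1:**
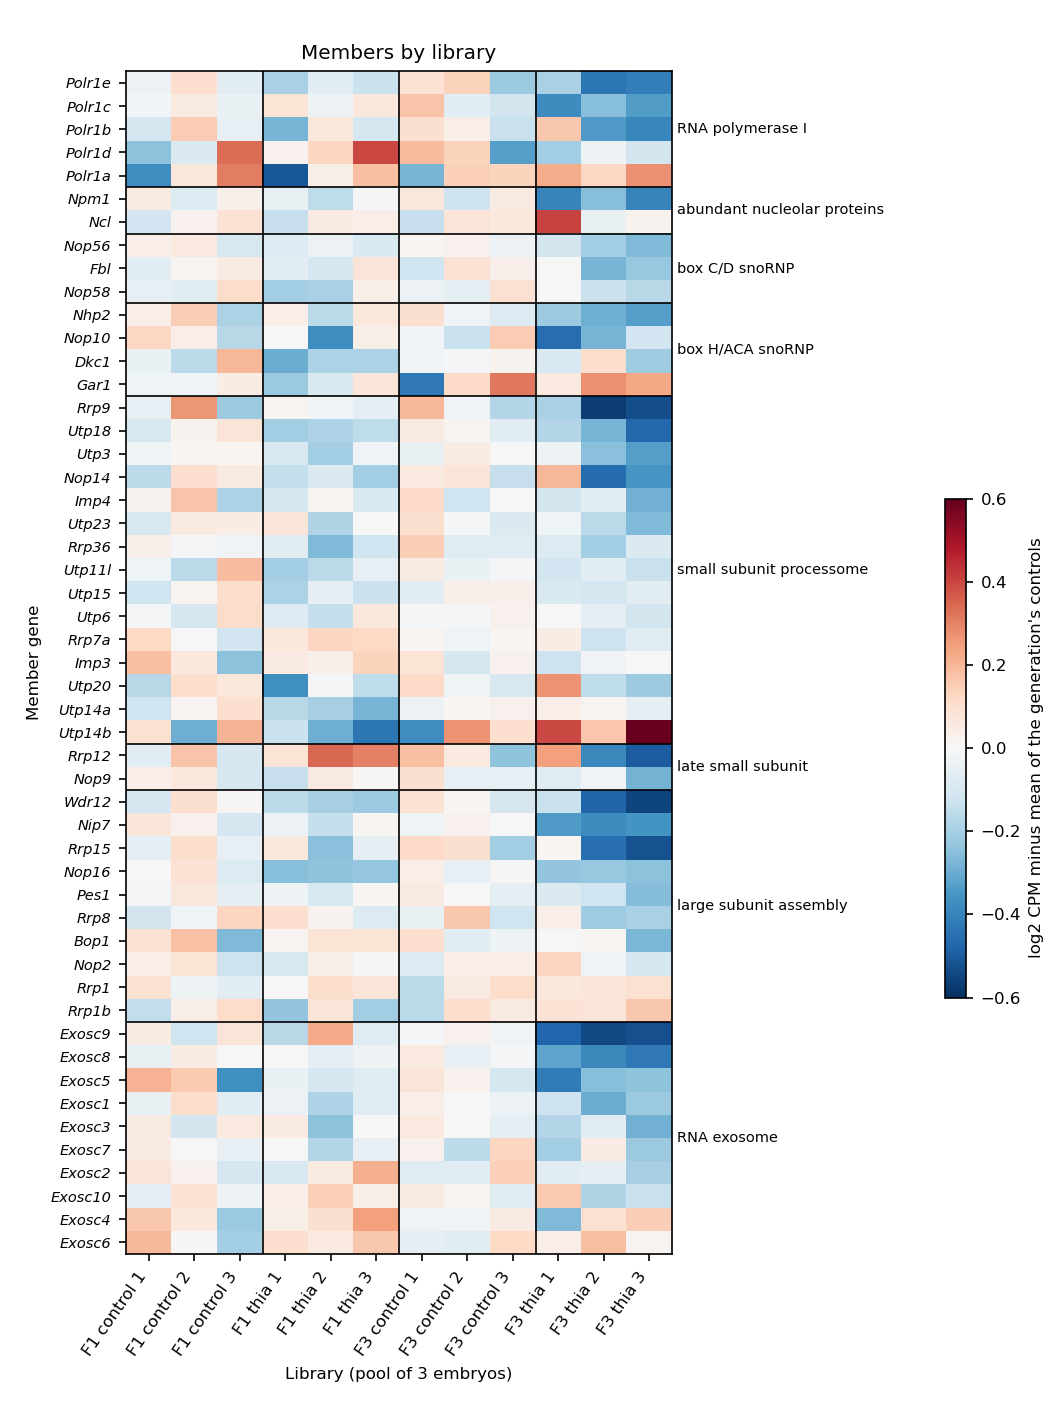
Each row is a member, grouped by role, and each column a library. The colour gives the log2 CPM minus the mean log2 CPM of the control libraries of the same generation, from -0.6 (blue) to 0.6 (red). The F3 *thia* columns hold the deepest blue, with *Rrp9* at -0.57 in F3 thia 2, *Wdr12* at -0.55 in F3 thia 3 and *Exosc9* at -0.54 in F3 thia 2, while *Utp14b* is red there.

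The second question was whether the unexposed F3 descendants differed from their controls. No gene of 18539, and hence no member, passed the FDR of 0.1 in edgeR's test (percentage called 0). At an unadjusted p under 0.05 3906 genes passed, 10.0% of all genes lower and 11.0% higher. Among the 51 members 15 were lower at that threshold (29.4%) and none was higher. The groups did not overlap for 18 members, all lower in *thia* (35.3%), where 13.9% of all genes were lower and 13.4% higher. Of the 51 log2 fold changes 43 were below 0 (49.4% of all genes), their median was -0.13 (all genes 0.00), and they ranged from -0.52 to 0.38. The smallest adjusted p of a member, 0.101 by edgeR, equalled the smallest of all genes tested. Genes of unlike unadjusted p can share an adjusted p, so this gives no rank among all genes. *Nip7* and *Exosc8*, for example, shared 0.105 at unadjusted p-values of 0.00053 and 0.00094 by edgeR. The call depended on the tool: DESeq2's Wald test, with the same threshold, called 11 members, all lower, and 5.70% of genes with an adjusted p as lower. The 11 were *Exosc9*, *Nip7*, *Exosc8*, *Npm1*, *Rrp9*, *Nhp2*, *Polr1c*, *Wdr12*, *Exosc5*, *Nop16* and *Utp18*. Without F3 thia 2 edgeR called 4 members as lower, *Exosc9*, *Nip7*, *Exosc8* and *Npm1*, with 2.59% of all genes lower. In that fit 13 members, and 1970 of 18974 genes, were lower at an unadjusted p under 0.05. The median of the members was -0.14.

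**Figure D2:**
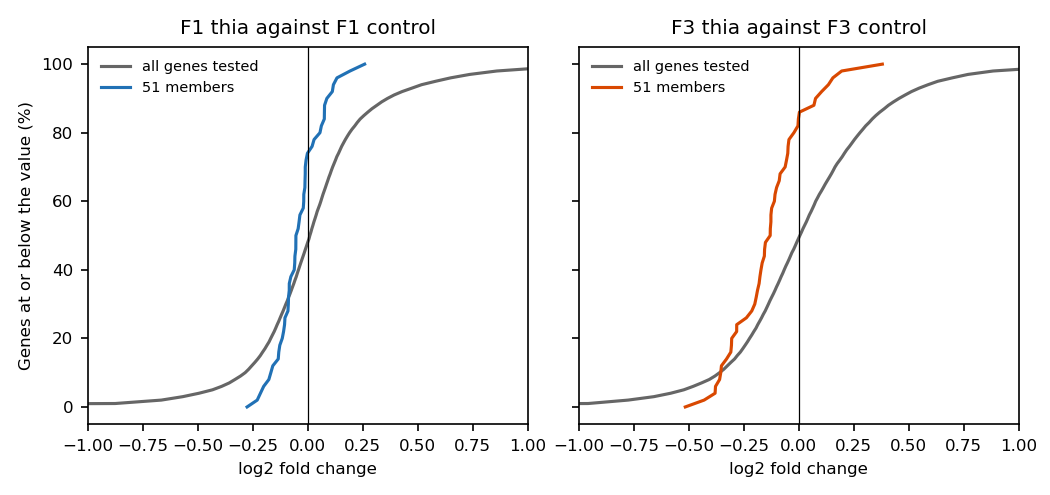
The curves give the share of genes (y axis, percent) at or below each log2 fold change of *thia* over control (x axis) in F1 (left) and F3 (right), grey for all genes tested and coloured for the 51 members. In F3 the member curve lies left of the curve of all genes, with medians of -0.13 and 0.00, and in F1 the medians are -0.05 and 0.01.

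The member levels were not equally low in the F3 *thia* pools. Against the mean of the F3 controls the median member deviated by -0.08 (log2) in F3 thia 1, -0.15 in F3 thia 2 and -0.22 in F3 thia 3, and 31, 40 and 42 of the 51 members lay below 0. The control pools deviated by -0.01 to 0.04, and the median over all genes by -0.02 to 0.02 in the 6 F3 libraries. The summed level of the members was 4716 to 4828 CPM in F3 control and 4066 to 4521 in F3 *thia*, without overlap. In F1 the sums were 4413 to 4549 in control and 4238 to 4519 in *thia* and overlapped. Marker sums of other cells also separated the same F3 libraries. The 8 fetal Leydig cell genes summed to 2383 to 3874 CPM in control and 4044 to 7279 in *thia*, the 8 endothelial genes to 187 to 213 and 273 to 325, and the 8 adrenal genes to 31.8 to 45.2 and 48.2 to 79.8. The 15 germ cell genes summed to 856 to 1337 CPM in control and 600 to 1163 in *thia*, with overlap. The part of these cells in the lower member levels was not tested.

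**Figure D3:**
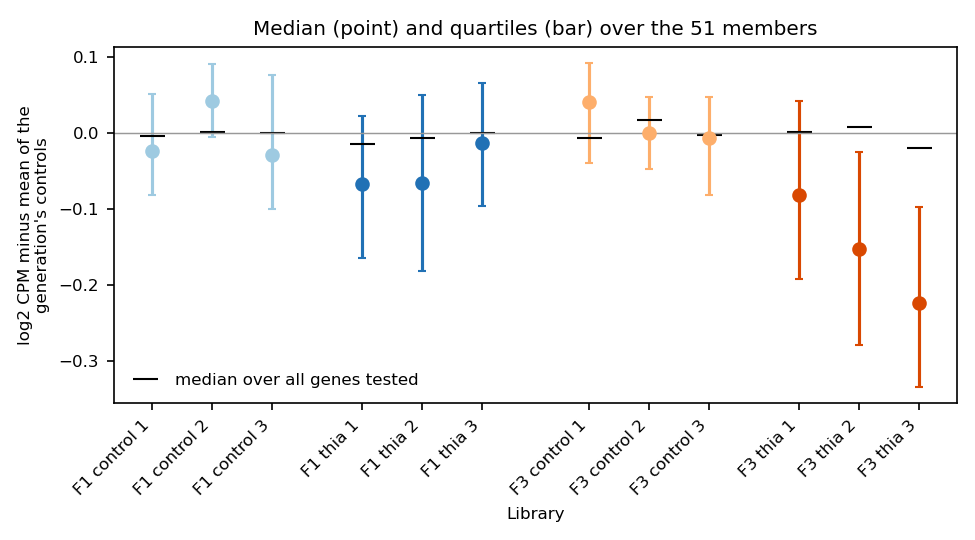
Points give the median and bars the quartiles over the 51 members of log2 CPM minus the mean of the same generation's control libraries (y axis), for each library (x axis), and black dashes the median over all genes tested. The 3 F3 *thia* libraries sit at -0.08, -0.15 and -0.22, below the other F3 libraries, while the dashes stay between -0.02 and 0.02.

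The RNA exosome held the member of smallest p. *Exosc9* (chr3:36552606-36565727, mm10), a subunit of the ring, was at 33.4, 34.1 and 33.0 CPM in F3 control and at 24.1, 23.0 and 23.3 in F3 *thia*, with a wide gap between the groups. Its log2 fold change was -0.52 ± 0.07 (unadjusted p = 0.000141, adjusted p = 0.101 by edgeR), that is 30.1% lower. In F1 it was at 27.3, 24.3 and 27.9 CPM in control and 23.6, 30.9 and 25.1 in *thia*, overlapping, so that the F3 controls were the highest of the 4 groups. The exons of *Exosc9* overlap those of *Ccna2* on the other strand over 23.4% of their length, and whether the counting used strand is not given. *Ccna2* itself had a log2 fold change of -0.13 ± 0.16 in F3. *Exosc8* (chr3:54728678-54735393), another ring subunit, was at 49.2, 45.7 and 47.0 CPM in F3 control and at 37.9, 36.2 and 35.1 in *thia* (log2 fold change -0.38 ± 0.07, adjusted p = 0.105 by edgeR). The groups did not overlap, and in F1 the same gene was nearly level, at 43.4 to 46.2 CPM in control and 43.1 to 44.8 in *thia*. *Exosc5*, also of the ring, was at 45.7, 44.1 and 40.2 CPM in control and 32.4, 36.2 and 36.6 in *thia* (-0.31 ± 0.09, adjusted p = 0.132 by edgeR).

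The cap subunits and the remaining exosome members were closer to their controls. *Exosc1* of the cap was at 31.7, 30.8 and 30.2 CPM in F3 control and 28.4, 25.2 and 26.4 in *thia* (-0.21 ± 0.08), and *Exosc3*, also of the cap, was at 32.3 to 35.2 and 27.6 to 32.2 (-0.18 ± 0.08). For both the groups did not overlap. *Exosc2*, the other cap subunit, and *Exosc7* of the ring overlapped, at -0.11 ± 0.09 and -0.13 ± 0.12. *Exosc10*, a catalytic subunit of the nuclear exosome, was at -0.05 ± 0.10, and *Exosc4* at 0.00 ± 0.12. *Exosc6* was at 0.08 ± 0.10, but its single exon lies wholly within a transcript of *Aars* on the same strand, so that its count is uncertain. Over the 10 exosome members the F3 median was -0.15, with 4 lower at an unadjusted p under 0.05 (10.0% of all genes were) and 5 lower without overlap (13.9% of all genes). In F1 the median was 0.00, with none at that threshold.

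**Figure D4:**
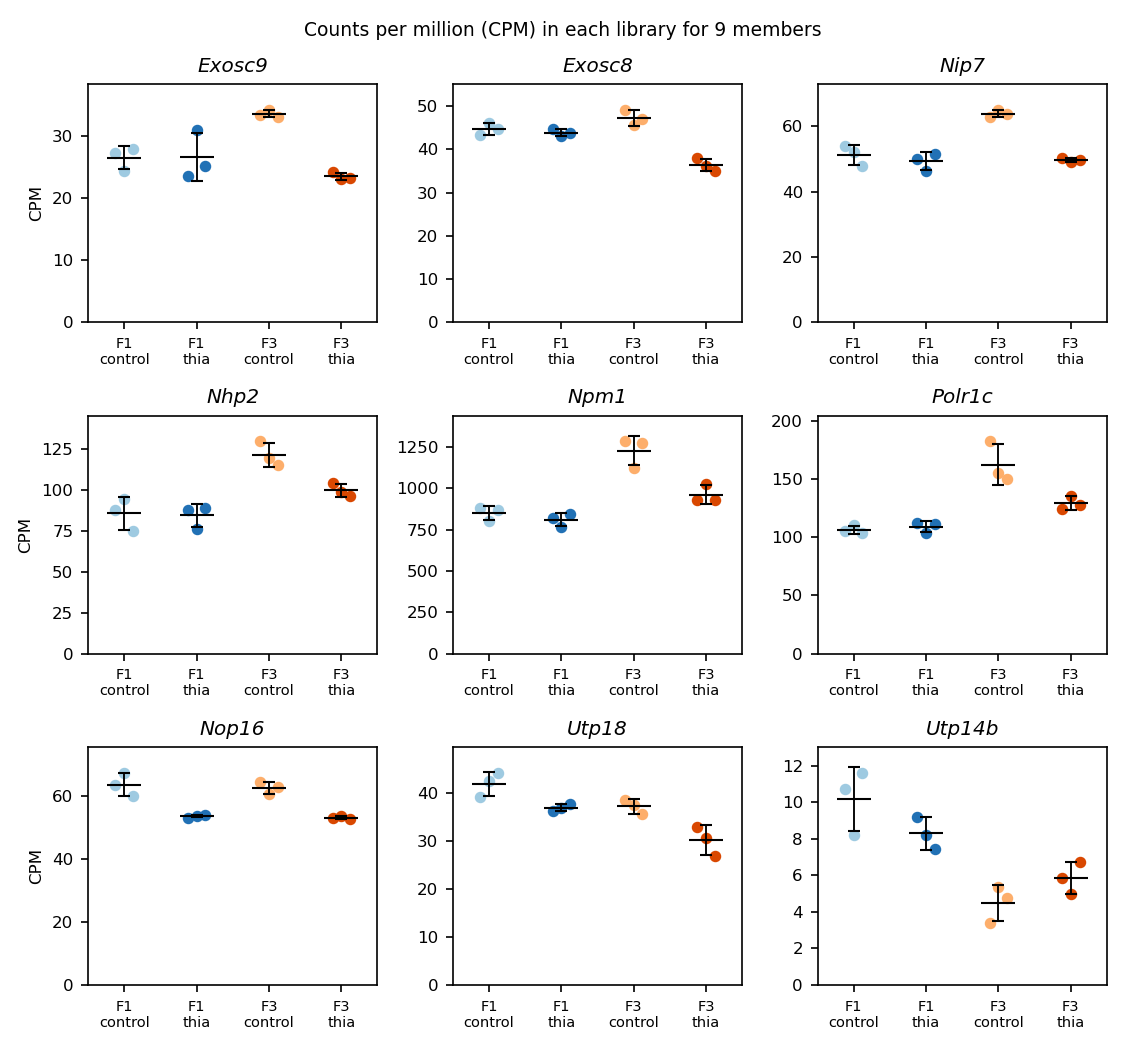
CPM (y axis, from 0) of 9 members in the 4 groups (x axis). Points are libraries, and black marks the mean ± SD of 3. In *Exosc9*, *Exosc8*, *Nip7*, *Nhp2*, *Npm1* and *Polr1c* the F3 *thia* points lie below the F3 control points without overlap while the F1 groups overlap, in *Nop16* and *Utp18* both generations separate, and in *Utp14b* the groups overlap in both.

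Subunits of RNA polymerase I were unequal. *Polr1c*, shared with RNA polymerase III, was at 183, 155 and 150 CPM in F3 control and 125, 136 and 128 in *thia*, without overlap (-0.33 ± 0.09, adjusted p = 0.128 by edgeR). In F1 it was at 105, 110 and 103 CPM in control and 112, 104 and 111 in *thia*. *Polr1e*, of the dimer that associates with polymerase I, was at 34.7, 36.0 and 28.0 CPM in F3 control and 28.6, 24.2 and 24.5 in *thia* (-0.35 ± 0.12), with 1 control within the *thia* range. *Polr1b*, the second-largest subunit, was at -0.17 ± 0.15 in F3, where F3 thia 1 lay above every control at 66.5 CPM and the other *thia* pools below every control at 46.9 and 45.2. *Polr1d*, also shared with polymerase III, was at -0.13 ± 0.13. The largest subunit *Polr1a* was at 59.0, 79.1 and 78.6 CPM in control and 83.7, 78.0 and 86.7 in *thia* (0.19 ± 0.12), with overlap. None of the 5 passed the unadjusted p of 0.05 in F1, where they ranged from -0.12 to 0.19.

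Of the abundant nucleolar proteins, *Npm1* was at 1284, 1126 and 1273 CPM in F3 control and 929, 1027 and 927 in *thia*, without overlap (log2 fold change -0.36 ± 0.09, adjusted p = 0.117 by edgeR). In F1 it was at 802 to 881 CPM in control and 765 to 843 in *thia*, below both F3 groups. *Npm1* has processed copies elsewhere in the genome, so that reads could be shared with them. *Ncl*, nucleolin, which binds the ribosomal RNA precursor, was at 512, 595 and 589 CPM in control and 747, 546 and 572 in *thia* (0.13 ± 0.13). F3 thia 1 alone was above the controls.

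In the box H/ACA particle *Nhp2*, an RNA-binding core protein, was at 130, 119 and 115 CPM in F3 control and 104, 99.1 and 96.3 in *thia*, without overlap (-0.28 ± 0.07, adjusted p = 0.117 by edgeR). *Nop10*, its small partner, was at 65.9, 60.6 and 73.9 in control and 48.5, 54.9 and 61.5 in *thia* (-0.28 ± 0.12), overlapping at 1 pool. *Dkc1* was at -0.06 ± 0.09 and *Gar1*, which binds the synthase, at 0.15 ± 0.18. In the box C/D particle *Nop56* did not overlap (-0.19 ± 0.07), while *Fbl* (-0.17 ± 0.10) and *Nop58* (-0.10 ± 0.08), the partner of *Nop56*, did.

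Of the 10 large subunit assembly members 3 were lower in F3 at an unadjusted p under 0.05 (10.0% of all genes were). *Nip7* (chr8:107056877-107060931, mm10), which acts in pre-rRNA processing, was at 62.8, 65.0 and 63.8 CPM in F3 control and 50.4, 49.2 and 49.8 in *thia*. The spread within each group was far smaller than the gap between them (log2 fold change -0.36 ± 0.06, adjusted p = 0.105 by edgeR). In F1 its groups overlapped, at 47.7 to 53.9 CPM in control and 46.4 to 51.6 in *thia*. *Nop16* was at 64.4, 60.6 and 63.0 CPM in F3 control and 53.2, 53.6 and 52.7 in *thia* (-0.24 ± 0.06, adjusted p = 0.125 by edgeR), close to its F1 values in both groups. *Wdr12* was at 59.2, 56.2 and 52.0 CPM in control and 50.8, 39.9 and 38.0 in *thia* (-0.38 ± 0.12). F3 thia 1 lay just below the lowest control. Of the other PeBoW proteins, *Pes1* did not overlap (-0.16 ± 0.07) and *Bop1* did (-0.09 ± 0.10). *Nop2*, a methyltransferase of large subunit RNA, was at 0.00 ± 0.09. The group's F3 median was -0.14.

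Of the 15 small subunit processome members 14 were below 0 in F3 (49.4% of all genes were), with a median of -0.11, and 2 were lower at an unadjusted p under 0.05, near the 10.0% of all genes that were. *Rrp9*, which binds the U3 RNA of the processome, was at 80.2, 68.8 and 61.8 CPM in F3 control and 61.1, 47.1 and 48.3 in *thia* (log2 fold change -0.43 ± 0.13, adjusted p = 0.142 by edgeR). The highest *thia* pool and the lowest control differed by less than 1 CPM. *Utp18* was at 38.5, 37.6 and 35.6 CPM in F3 control and 33.0, 30.7 and 26.8 in *thia* (-0.31 ± 0.09, adjusted p = 0.142 by edgeR). *Rrp36*, *Utp11l* and *Utp15* also did not overlap, at -0.13, -0.11 and -0.09. *Wdr12*, *Utp18*, *Nop16* and *Rrp36* were the 4 members lower without overlap in both generations. Of all genes 8.45% in F1 and 13.9% in F3 were lower without overlap, and the share in both together was not counted. *Utp14b* was the exception in sign, at 3.41, 5.34 and 4.75 CPM in F3 control and 5.84, 4.98 and 6.75 in *thia* (0.38 ± 0.22), with overlap. In F1 it was at 10.7, 8.22 and 11.6 CPM in control and 9.21, 8.20 and 7.46 in *thia*. It lies within *Acsl3* on the same strand and is a near copy of *Utp14a*, so that its count is uncertain. *Utp14a* itself was at 0.00 ± 0.08 in F3. The late small subunit factors *Rrp12* and *Nop9* were at -0.19 ± 0.20 and -0.13 ± 0.09 in F3, and *Rrp12* again lay above every control in F3 thia 1 (112 CPM) and below every control in the other pools (71.9 and 66.5).

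**Figure D5:**
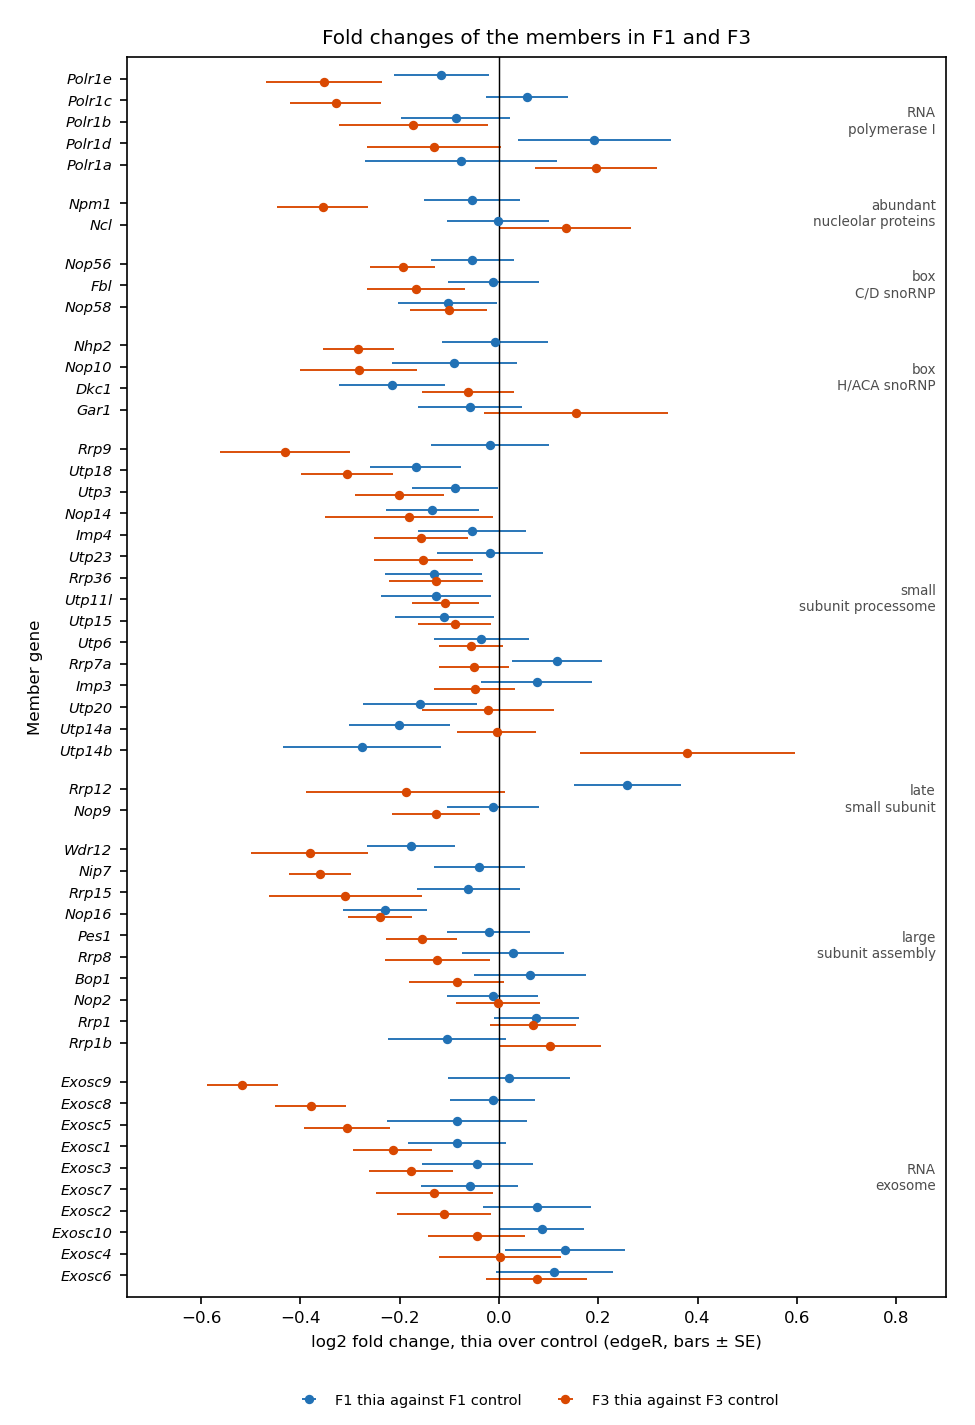
Log2 fold change of *thia* over control (x axis, bars ± SE) for the 51 members (y axis) by role group, in F1 (blue) and F3 (orange). *Exosc9*, at -0.52 in F3 and 0.02 in F1, is the lowest F3 point, and *Utp14b*, at 0.38 and -0.28, the highest.

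Whether the F3 effect differed from the F1 effect was tested in 1 fit of the 12 libraries. No member passed the FDR of 0.1 (smallest adjusted p 0.248), and over all genes 0.00510% passed. At an unadjusted p under 0.05 5 members had a more negative effect in F3 (6.10% of all genes did) and 1 a more positive one (7.93% of all genes). The median difference over the members was -0.11 (log2, F3 effect minus F1 effect), against 0.02 over all genes. It was -0.06 without F3 thia 3, -0.06 without F1 control 3 and -0.06 with the gene length trend removed. *Exosc9* had a difference of -0.52 ± 0.14 and *Exosc8* of -0.35 ± 0.10, both with an adjusted p of 0.248 by edgeR. *Polr1c* (-0.37 ± 0.12), *Nip7* (-0.30 ± 0.10) and *Npm1* (-0.28 ± 0.12) were the others in that direction, and *Utp14b* (0.67 ± 0.27) stood in the other. The 10 smallest p-values also included *Rrp9* (-0.40 ± 0.19), *Nhp2* (-0.26 ± 0.14), *Utp14a* (0.21 ± 0.12) and *Rrp12* (-0.43 ± 0.25). In this fit the difference was below 0 for the 10 exosome members, with a median of -0.12, and for 9383 of 19626 genes. Over 19 alternatives it was above 0 in 7 for *Exosc6*, in 3 for *Exosc7*, and in 1 each for *Exosc1*, *Exosc3* and *Exosc4*. Of the 51 members 33 were below 0 in both generations. Of all genes 48.0% in F1 and 49.4% in F3 were below 0, and the share below 0 in both was not counted.

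Other genes of the pathway, 113 from hand-written lists that hold no member, were counted the same way. None passed the adjusted threshold in F1 or in F3. In F3 22 were lower and 2 higher at an unadjusted p under 0.05, where 10.0% of all genes were lower and 11.0% higher. Without overlap 36 were lower and 5 higher, where 13.9% and 13.4% of all genes were, and the median was -0.14. In F1 10 were lower and none higher at that p, where 4.13% of all genes were lower and 4.63% higher, and the median was -0.09. The same shares of all genes apply to the counts of each list below. Of 13 factors that work with RNA polymerase I, 3 were lower and 1 higher in F3. *Taf1b*, of the promoter selectivity factor, was at 31.1 to 39.3 CPM in F3 control and 23.4 to 24.7 in *thia* (-0.53 ± 0.10, adjusted p = 0.105 by edgeR), and in F1 it was at -0.24 ± 0.11. *Tcof1*, treacle, which promotes rRNA transcription, was at 21.3 to 33.6 CPM in control and 32.5 to 42.1 in *thia* in F3 (0.47 ± 0.18, adjusted p = 0.192 by edgeR). *Taf1a*, from the same selectivity factor as *Taf1b*, was at -0.30 ± 0.14 in F1.

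Of 39 other small subunit factors 36 were below 0 in F3 and 8 were lower at an unadjusted p under 0.05, with none higher. *Emg1*, a methyltransferase, was at 183 to 200.1 CPM in F3 control and 143 to 156 in *thia* (-0.36 ± 0.07), and *Aatf* was at 30.4 to 38.9 and 27.2 to 28.6 (-0.36 ± 0.10). In F1 5 of the 39 were lower, led by the kinase *Riok2* (-0.32 ± 0.12) and *Wdr43* (-0.24 ± 0.09). Of 45 other large subunit factors 7 were lower and 1 higher in F3, with *Senp3*, a SUMO protease, at -0.38 ± 0.10 and *Nle1* at -0.29 ± 0.09. In F1 4 were lower, with the ATPase *Mdn1* at 98.4 to 112 CPM in control and 72.5 to 87.3 in *thia* (-0.36 ± 0.10, adjusted p = 0.446 by edgeR) and *Gtpbp4* at -0.29 ± 0.11. Of 16 exosome cofactors and other RNA decay genes 4 were lower and none higher in F3. *C1d*, which binds the nuclear exosome, was at 95.5 to 99.1 CPM in control and 78.4 to 80.3 in *thia* (-0.30 ± 0.06), and *Wdr61* of the Ski complex at -0.31 ± 0.07. In F1 *Mphosph6* and *Papd5*, an exosome-associated protein and a poly(A) polymerase, were at -0.30 ± 0.10 and -0.26 ± 0.12. The 113 genes share the libraries and their controls with the members, so that both sets of values carry the same pools.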

How the data were processed

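The authors sequenced paired 100-base reads from directional libraries, demultiplexed with bcl2fastq 2.20.0.422, mapped with HISAT2 2.1.0 to mm10 and counted per refGene symbol with featureCounts. The deposited values are raw counts. Mapping was set to the reverse strand. The strand option of featureCounts, and whether it counted pairs or reads, are not given in the sources used here. The study's own tests used DESeq2 2.11.40.7, per the labels.

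Counts were tested in R 4.3.3 with edgeR 4.0.16 (filterByExpr at a minimum count of 10, TMM, quasi-likelihood test) over all genes, within F1, within F3 and, for the difference, over 12 libraries. DESeq2 1.42.0 was an alternative. The scripts were tested on simulated data. Standard errors were derived from the F statistic. Coordinates and exon lengths came from GENCODE M21 (mm10). The members and lists were chosen with earlier results of these data known. Named in full are the 10 members of smallest p in each comparison, the 3 highest and 3 lowest per kb, and all *Exosc* and *Polr1* members, with at most 2 genes per pathway list and generation.

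Alternatives were RLE and upper quartile scaling, no filter, a replicate block, removal of gene length or GC trends, 1 fit of all libraries, each library left out, and 3 factors under older symbols added (*Cirh1a*, *Diexf* and *Gltscr2*), the last chosen after seeing the data.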

Additional observations from a re-analysis of the deposited data

How the results depend on the processing

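Signs under the alternatives were compared for the members named in full, over values that were not called. The sign was the other one in 29 values in F1 and the same in 405. In F3 it was the other one in 21, of which *Exosc4* and *Utp14a* held 7 each, and the same in 382. For the difference it was the other one in 31 and the same in 555. In F1 no member was called under any alternative. F1 genes called, 2 in the reported test, were 193 with DESeq2, 243 with no filter, 0 in 1 fit of 12 libraries and 0 to 20 with single libraries left out. F1 members lower at p under 0.05 numbered 3 in the fit of 12 libraries, where 987 of 19626 genes were. With single libraries left out they numbered 0 to 3, where 347 to 1285 genes were lower. F1 members higher numbered 0 with the GC trend removed and in the fit of 12 libraries, and 0 to 1 with single libraries left out. In F3, members called, 0 in the reported test, were 11 with DESeq2, 3 with upper quartile scaling, 3 with no filter and 10 in the fit of 12 libraries, each lower. In that order, genes called were 2262, 520, 569 and 1936, of which 867, 311, 203 and 783 were lower. Genes tested were 15218 (those with an adjusted p), 18539, about 30720 and 19626. With single libraries left out, members called in F3 were 0 to 4 and genes called 0 to 1294. The highest of both were without F3 thia 2, where 492 of the genes called were lower. F3 members lower at p under 0.05 were then 11 to 20. The 11 were without F3 control 1, where 1099 of about 18930 genes were lower. The 20 were without F3 thia 1, where 2196 of about 18840 genes were. For the difference, DESeq2 called 3 members, each lower, and 638 genes, 254 of them lower. The GC trend removal called 2 genes, the replicate block 0 genes, and single libraries left out 0 to 4 genes. The median of the members stayed below 0 under each alternative, from -0.07 to -0.03 in F1 (nearest 0 without F1 control 2), from -0.19 to -0.10 in F3 and from -0.14 to -0.06 for the difference with libraries left out. The replicate numbers did not pair the pools (correlations of same-numbered pools -0.42 to 0.23). With the replicate block no member was called in F1 or F3, and 16 were lower at p under 0.05 in F3, where 1643 of 18539 genes were. With 3 pools per group, an exact test of 1 gene cannot go below p = 0.1.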
